A study of Mus musculus with 9 samples.

Results

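The tumour necrosis factor (TNF) superfamily was followed through mouse intestinal mini-gut cultures as 35 genes of the 24505 genes in the GRO-seq table. GRO-seq (global run-on sequencing) reads the RNA that engaged polymerases are making in nuclei, so its values stand for transcription and not for RNA or protein level. The genes were chosen by name and not by value: every symbol beginning with Tnfsf or Tnfrsf and a number, other than Tnfrsf11a and Tnfrsf11b, together with Tnf, Lta, Ltb, Ltbr, Fas and Fasl. They comprise 15 ligands, 5 receptors with a cytoplasmic death domain, 12 receptors without one that are known to bind TRAF proteins, and 3 mouse decoy or orphan receptors.

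The ligands of this family are mostly trimeric membrane proteins, several of which are shed from the cell surface, and the receptors bind them through cysteine-rich repeats. Receptors with a death domain recruit adaptors such as FADD and TRADD and can lead to caspase activation. Most of the others recruit TRAF adaptors and signal through NF-kB and MAP kinases. In the gut the family is known for control of epithelial cell death and renewal, and the ligand encoded by Tnfsf11, usually called RANKL, is known to induce M cells, the antigen-sampling cells of the epithelium over lymphoid follicles.

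All libraries came from mouse duodenum. GRO-seq was run on 2 libraries of each of 3 cultures: RANKL (cell type label intestinal M cell), ENRI (label enterocyte) and WENRC (label intestinal stem cell). ENRI and WENRC libraries each came from mouse 1 and mouse 2, while the RANKL libraries carry a replicate number and no mouse. H3K27me3, the histone mark of Polycomb repressive complex PRC2, was mapped in 2 RANKL libraries, which the authors pooled, and in 1 WENRC library, and ENRI was not part of that assay. The labels give no strain, genotype, age, dose or culture time, and do not spell out the culture names, which are used here as names. Nothing in the labels says that the 2 RANKL libraries came from separate animals or cultures, so p-values measure the spread between these libraries, which may be technical.

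The labelled cell types were set against marker genes. All 7 M cell markers were higher in RANKL than in ENRI, with a median log2 change of 4.25, and 6 of 7 were higher than in WENRC. Of 8 enterocyte markers 7 were lower in WENRC than in ENRI, and of 7 stem markers 6 were higher, Tnfrsf19 itself among these 7. All 7 epithelial markers passed the filter on low values, while the leukocyte markers Cd3e, Cd3g, Cd79b and Itgax did not, nor did 5 of 6 stromal markers. The leukocyte markers Ptprc, Itgam, Csf1r, Adgre1, Cd68 and Cd79a did pass it. Values ran from 7.51 to 8.52 for Cd68 and from 6.78 to 7.51 for Csf1r. Replicates were closest in RANKL, where their difference had an SD over genes of 0.22, followed by WENRC with 0.42 and ENRI with 0.70. The Y-linked gene Ddx3y was at 8.49 in ENRI 1 and 8.29 in WENRC 1, the mouse 1 libraries, against 3.28 to 3.60 in the other 4 libraries. How deeply these libraries were sequenced is unknown.

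Promoter windows of the members bear on the results in 3 places, and these are printed first. They are RefSeq windows on the GRCm38.p6 build, from 250 bases before to 50 bases after a start site, and 29 of the 35 members had at least 1 (33 windows, of 32851 in all). Both windows of Tnfrsf19 are shown because its upstream start and its internal start each lay in a region with more H3K27me3 in RANKL. The internal start of Tnfrsf9 is shown because a region with more H3K27me3 in WENRC covered all of its window, and Tnfrsf8 because it was transcribed more in RANKL than in both other cultures. Capitals mark motif matches on either strand, and each sequence reads 5′ to 3′ on the strand of the gene.
Tnfrsf19 upstream start (chr14:61046806-61047105, minus strand): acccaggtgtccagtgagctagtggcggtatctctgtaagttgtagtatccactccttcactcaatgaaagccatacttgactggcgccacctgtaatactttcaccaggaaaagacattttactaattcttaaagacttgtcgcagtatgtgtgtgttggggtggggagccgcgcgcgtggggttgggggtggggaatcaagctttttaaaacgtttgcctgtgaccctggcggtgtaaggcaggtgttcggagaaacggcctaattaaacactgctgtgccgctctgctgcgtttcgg
Tnfrsf19 internal start (chr14:61037938-61038237, minus strand): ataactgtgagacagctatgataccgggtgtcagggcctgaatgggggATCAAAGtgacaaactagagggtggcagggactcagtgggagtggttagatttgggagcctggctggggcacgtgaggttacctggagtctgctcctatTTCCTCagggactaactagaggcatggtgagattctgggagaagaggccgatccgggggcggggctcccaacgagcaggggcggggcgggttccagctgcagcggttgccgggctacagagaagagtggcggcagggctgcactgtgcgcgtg
Tnfrsf9 internal start (chr4:150927749-150928048, plus strand): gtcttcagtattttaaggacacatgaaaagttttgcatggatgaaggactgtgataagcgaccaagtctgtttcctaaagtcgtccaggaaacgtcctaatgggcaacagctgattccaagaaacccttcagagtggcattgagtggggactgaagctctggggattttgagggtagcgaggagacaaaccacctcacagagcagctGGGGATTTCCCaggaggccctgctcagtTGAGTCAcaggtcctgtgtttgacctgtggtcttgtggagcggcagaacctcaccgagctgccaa
Tnfrsf8 (chr4:145315115-145315414, minus strand): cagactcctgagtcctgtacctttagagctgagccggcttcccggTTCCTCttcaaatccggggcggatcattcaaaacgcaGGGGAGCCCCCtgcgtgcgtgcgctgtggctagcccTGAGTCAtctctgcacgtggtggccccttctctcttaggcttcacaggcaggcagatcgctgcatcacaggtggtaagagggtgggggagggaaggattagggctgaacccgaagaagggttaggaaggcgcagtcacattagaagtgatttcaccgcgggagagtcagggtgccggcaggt

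The motifs searched were a 10-base kappaB motif (the site of NF-kB), the AP-1 motif TGANTCA, the TCF/LEF motif CTTTGAT, the PU.1/Spi-B motif GAGGAA and the interferon regulatory factor (IRF) motif of GAAA, 2 bases of any kind and GAAA. A match is a description of letters and not a binding site. The Tnfrsf19 upstream window held none of the 5 motifs and 14 CpG dinucleotides, while the internal window held a TCF/LEF match at 202 to 196 bases before the start and a PU.1/Spi-B match at 103 to 98 bases before it. The Tnfrsf9 internal window held overlapping kappaB matches from 43 to 33 bases before the start and an AP-1 match from 15 to 9 bases before it. In Tnfrsf8 overlapping kappaB matches lay from 168 to 158 bases before the start, with an AP-1 match from 132 to 126 bases and a PU.1/Spi-B match from 205 to 200 bases before it. Tnfsf10 was also transcribed more in RANKL than in both other cultures. Its window is not shown and held none of the 5 motifs.

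Across the 33 member windows, an AP-1 match was present in 7 (21.2%), in Fas, Tnfrsf8, Tnfrsf9, Tnfsf13, Tnfsf14 and both windows of Tnfsf13b, which overlap each other and share the match, against 7.81% of all windows. A kappaB match was present in 4 (12.1%), those of Ltb, Tnfrsf25, Tnfrsf8 and Tnfrsf9, against 8.46% of all windows. The IRF motif was matched in 4 (12.1% against 3.44%), PU.1/Spi-B in 12 (36.4% against 28.3%) and TCF/LEF in 2 (6.06% against 3.73%). Member windows held a median of 8 CpG and 55.3% GC, against 7 CpG and 52.7% GC over all windows.

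Each of the 25 members that could be tested lay above the filter (a value of at least log2 of 10, or 3.32) in all 6 libraries, so none passed through a single culture. Values are the authors' normalized log2 values for whole genes. They ranged from 3.38 for Ltb, which encodes lymphotoxin beta, in ENRI 2 to 10.89 for Tnfrsf19 in RANKL 1 and RANKL 2. The 10 members under the filter were the ligands Fasl, Lta, Tnfsf4, Tnfsf8, Tnfsf11, Tnfsf14 and Tnfsf18 and the receptors Tnfrsf13b, Tnfrsf13c and Tnfrsf17, the last 3 being receptors known from B cells and plasma cells. Their values lay between -0.66 and 3.18 in every library and were not tested. All 5 death domain receptors and all 3 decoy or orphan receptors were transcribed above the filter, against 8 of 15 ligands and 9 of 12 TRAF-type receptors.

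**Figure D1:**
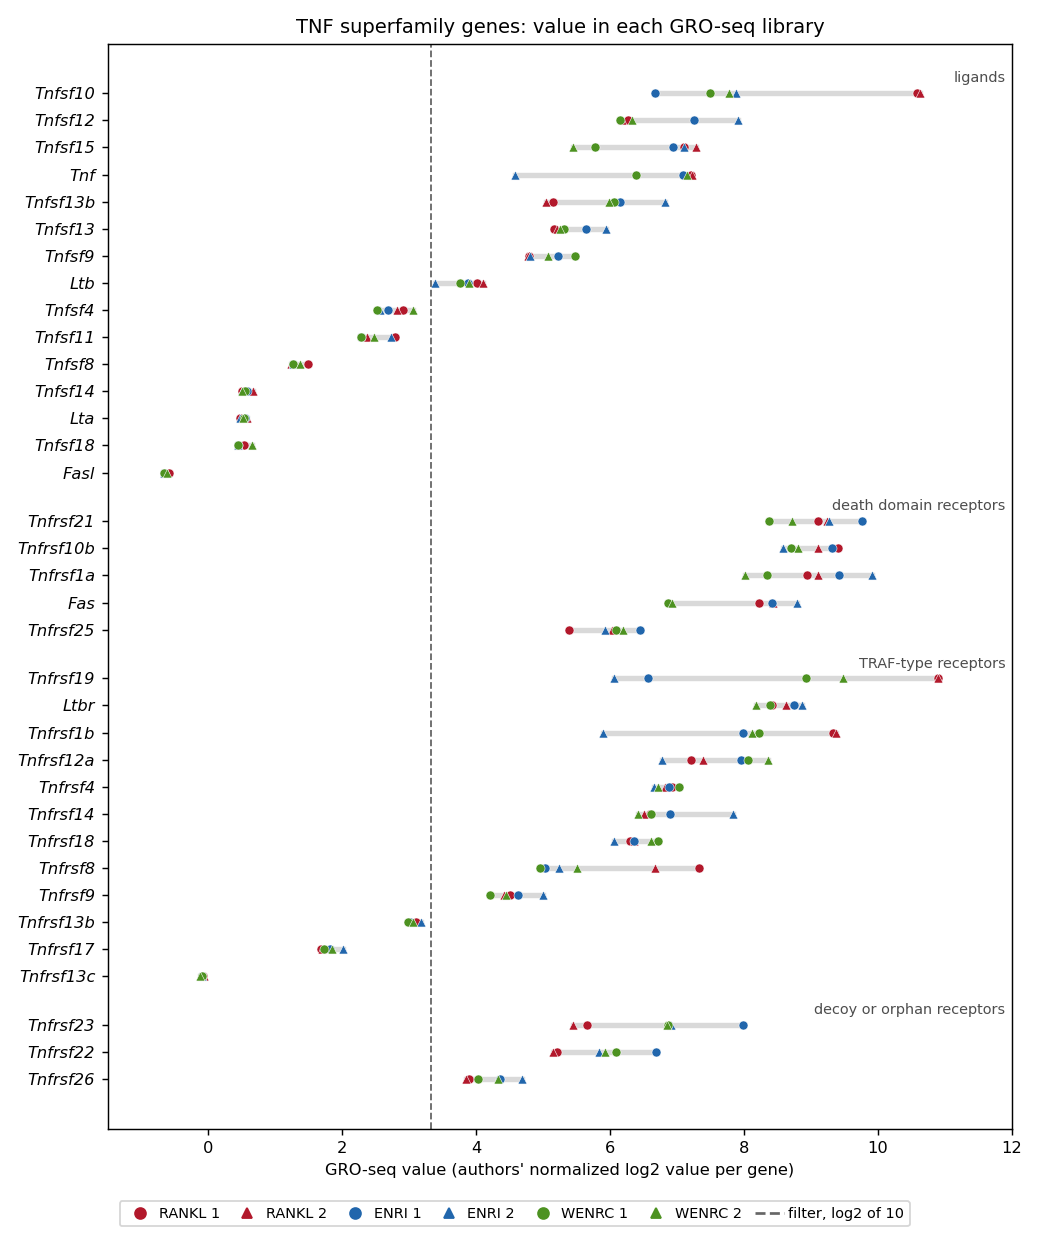
Authors' normalized log2 GRO-seq value (horizontal axis) of each of the 35 genes in each of the 6 libraries, ordered by role. Circles are replicate 1 and triangles replicate 2, grey bars span the libraries, and the dashed line is the filter at 3.32: the 10 genes to its left were not tested, and Tnfrsf19 and Tnfsf10 show RANKL libraries far to the right of the others.

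Whole-gene values grow with gene length, so levels of different genes were compared per kb (the log2 value minus log2 of the gene length in kb). On this scale Tnfrsf12a, the receptor for TWEAK, had the highest level in all 3 cultures, at 6.29 in RANKL, 6.35 in ENRI and 7.21 in WENRC; it overlaps Hcfc1r1 on the other strand. Tnfsf10 followed in RANKL at 6.11 per kb, against 2.78 in ENRI and 3.13 in WENRC. In ENRI Tnfrsf1a was second at 5.99, and in WENRC Ltbr, the lymphotoxin beta receptor, was second at 5.42. Tnfrsf19, a gene of 83.0 kb, had a per kb level of 4.52 in RANKL, 2.83 in WENRC and -0.06 in ENRI.

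RANKL against ENRI compares the M cell and enterocyte cultures. In RANKL 4 members were higher, Tnfrsf19, Tnfsf10, Tnfrsf1b and Tnfrsf8, and 3 were lower, Tnfrsf23, Tnfsf13b and Tnfsf12 (limma, adjusted p, the FDR, under 0.05 over all 16563 tested genes). That is 7 of 25 members (28.0%), against 20.9% of all tested genes, of which 10.4% were higher and 10.5% lower. The median log2 change of the members was -0.27, against 0.0 over all tested genes. Of the higher members 3 are TRAF-type receptors and 1 is a ligand, and of the lower members 2 are ligands and 1 is a decoy receptor. None of the 5 death domain receptors passed the test.

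Tnfrsf19 encodes TROY, an orphan receptor of the TRAF type that is known as a marker of intestinal stem cells and a Wnt target. Its value was 10.89 in both RANKL libraries, 8.92 and 9.48 in WENRC 1 and 2, and 6.57 and 6.06 in ENRI 1 and 2. The 3 cultures did not overlap, with RANKL above WENRC and WENRC above ENRI. RANKL exceeded ENRI by 4.58 on the log2 scale (SE 0.25, limma FDR 0.00104), a 23.9-fold difference. WENRC exceeded ENRI by 2.89 (SE 0.25, limma FDR 0.00640), and RANKL exceeded WENRC by 1.69 (SE 0.25, limma FDR 0.0129). It was the sole member past the threshold in all 3 comparisons. The difference between RANKL and ENRI stayed past the threshold under all 14 alternative settings (FDR at most 0.0431); the 2 other differences did not stay past it under every setting. The summed level of the 7 stem markers, which include Tnfrsf19, was 14.0 to 14.1 in RANKL, 14.24 to 14.35 in WENRC and 11.85 to 12.89 in ENRI. Single markers split between RANKL and WENRC, with 1 called higher in RANKL, Tnfrsf19 itself, and 1 lower, Lgr5. Lgr5 had 8.75 and 8.84 in RANKL and 11.64 and 11.99 in WENRC, a change of -3.02 (limma FDR 0.00166). The part of the stem markers in the result was not tested. In such bulk cultures more cells that transcribe a gene and more transcription per cell cannot be told apart.

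Tnfsf10 encodes TRAIL, the ligand of the death receptor made from Tnfrsf10b. It had 10.58 and 10.63 in RANKL, 6.67 and 7.88 in ENRI and 7.49 and 7.77 in WENRC. Both RANKL libraries lay far above the other 4, among which ENRI and WENRC overlapped. RANKL exceeded ENRI by 3.33 (SE 0.38, limma FDR 0.00474) and WENRC by 2.97 (SE 0.38, limma FDR 0.00846), or 10.1-fold and 7.86-fold. Its receptor gene Tnfrsf10b was not past limma's threshold in any comparison, with changes of 0.31 over ENRI (limma FDR 0.445) and 0.50 over WENRC (limma FDR 0.268).

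Tnfrsf8 encodes CD30, a receptor known from activated lymphocytes. Its values were 7.32 and 6.67 in RANKL, 5.02 and 5.23 in ENRI and 4.95 and 5.51 in WENRC, so that both RANKL libraries were above all others. RANKL exceeded ENRI by 1.87 (SE 0.31, limma FDR 0.0130) and WENRC by 1.76 (SE 0.31, limma FDR 0.0203). The gene of its ligand, Tnfsf8, was under the filter in every library. Ptprc, the pan-leukocyte gene CD45, had means of 3.43 in RANKL, 4.01 in ENRI and 3.42 in WENRC. Leukocyte markers went both ways in RANKL: Itgam changed by 0.58 over ENRI and 0.57 over WENRC, and Adgre1 by -0.90 and -0.31. The median changes of the 6 tested leukocyte markers were 0.08 and -0.20. None of them passed the test between RANKL and either other culture. The part of other cell types in these values was not tested.

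Tnfrsf1b encodes TNF receptor 2, one of the receptors for TNF. Its RANKL libraries had 9.33 and 9.37, those of WENRC 8.22 and 8.11, and ENRI 1 and 2 had 7.99 and 5.90. RANKL was the highest in both libraries, and the ENRI libraries lay farther apart than the RANKL and WENRC means. The change over ENRI was 2.41 (SE 0.62, limma FDR 0.0413), and it depended on the ENRI library: it was 1.37 without ENRI 2 and 3.45 without ENRI 1. The change of 1.19 over WENRC did not pass the test (SE 0.62, limma FDR 0.263). That SE pools all 3 cultures, and the SD was 1.47 in ENRI against 0.03 in RANKL and 0.08 in WENRC. With only the 4 compared libraries in the fit limma did call this change, and the authors' adjusted p for it was 2.34e-10. Tnf, the ligand, had 7.20 and 7.22 in RANKL, 7.08 and 4.58 in ENRI and 6.39 and 7.14 in WENRC, and was not past limma's threshold in any comparison.

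**Figure D2:**
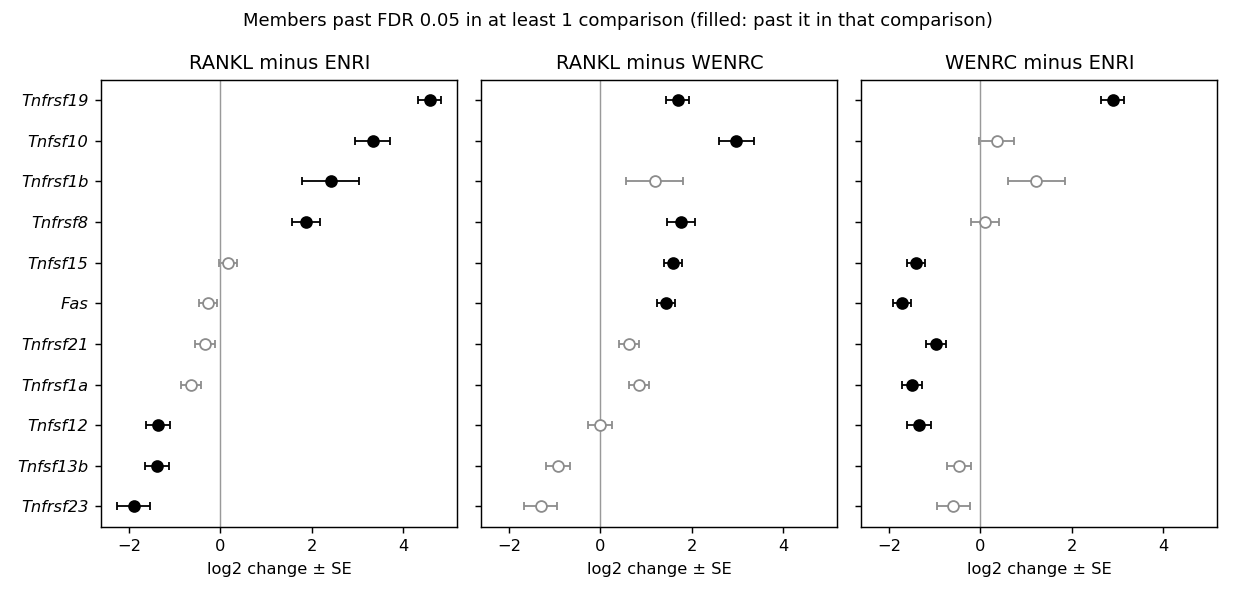
Log2 change with its standard error (horizontal axis) for the 11 genes past limma FDR 0.05 in at least 1 comparison, in panels for RANKL minus ENRI, RANKL minus WENRC and WENRC minus ENRI. Filled points passed the threshold in that panel: Tnfrsf19 in all 3, with 4.58, 1.69 and 2.89, and Fas, Tnfsf15, Tnfrsf1a, Tnfsf12 and Tnfrsf21 lower in WENRC than in ENRI.

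Among the members lower in RANKL, Tnfrsf23 encodes a mouse decoy receptor for TRAIL, annotated here by a non-coding RefSeq transcript. It had 5.66 and 5.45 in RANKL, 7.99 and 6.91 in ENRI, and 6.86 and 6.85 in WENRC. RANKL was below the other 4 libraries, with a change of -1.89 from ENRI (SE 0.36, limma FDR 0.0184) and of -1.30 from WENRC, which did not pass the test (limma FDR 0.0697). Its tandem neighbours on chromosome 7, Tnfrsf22 (a decoy receptor) and Tnfrsf26, had changes from ENRI of -1.08 (limma FDR 0.0547) and -0.65 (limma FDR 0.0753). These 3 genes are related in sequence and their reads may have been split between copies, so that the values of each are uncertain.

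Tnfsf13b encodes BAFF, a survival factor for B cells. It had 5.15 and 5.04 in RANKL, 6.14 and 6.82 in ENRI and 6.06 and 5.98 in WENRC, with RANKL below the other 4 libraries. The change from ENRI was -1.38 (SE 0.26, limma FDR 0.0185), and that from WENRC was -0.92 (limma FDR 0.0765). The genes of its receptors among the members, Tnfrsf13b, Tnfrsf13c and Tnfrsf17, were under the filter in every library.

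Tnfsf12 encodes TWEAK, the ligand of the receptor made from Tnfrsf12a. It had 6.26 and 6.18 in RANKL, 7.25 and 7.91 in ENRI and 6.15 and 6.32 in WENRC. ENRI stood above both others, which overlapped. RANKL was lower than ENRI, with a change of -1.36 (SE 0.26, limma FDR 0.0182), as was WENRC, with a change of -1.35 (SE 0.26, limma FDR 0.0252). Tnfsf12 and Tnfsf13, the gene of APRIL, lie inside the readthrough gene Tnfsfm13 on the same strand, which had 7.13 and 7.07 in RANKL, 7.92 and 8.57 in ENRI and 7.01 and 7.14 in WENRC. Tnfsf12 and Tnfsf13 do not overlap each other, but reads of either cannot be told apart from those of Tnfsfm13. Tnfrsf12a, the receptor gene, was not past limma's threshold in any comparison: it had 7.20 and 7.38 in RANKL, 7.95 and 6.77 in ENRI and 8.06 and 8.36 in WENRC.

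By the adjusted p of the authors' deposited table, 8 of the 25 members were under 0.05 in this comparison, 4 higher and 4 lower, against 19.6% of the same tested genes (8.55% higher and 11.0% lower): the 7 above and Tnfrsf22. The authors' deposited table gives log2 changes of 5.41 for Tnfrsf19, 3.74 for Tnfsf10, 2.46 for Tnfrsf1b, 3.08 for Tnfrsf8, -3.11 for Tnfrsf23, -2.73 for Tnfsf13b and -2.04 for Tnfsf12. Its changes are larger than those of the normalized values for all 7, by over 1.5 times for Tnfrsf8, Tnfrsf23 and Tnfsf13b. Without RANKL 1 or without RANKL 2, 1 member, Tnfrsf19, passed limma's threshold, and with WENRC 1 or WENRC 2 left out, although neither enters this comparison, 3 did, as with only the 4 compared libraries in the fit; without ENRI 1 the number was 14. The 3 members called by limma with only the 4 compared libraries were Tnfrsf19, Tnfrsf8 and Tnfsf10. Tnfrsf1b and all 3 members lower in RANKL were not called there. The RANKL libraries were sequenced apart from the others, per the file headers, so culture and sequencing cannot be told apart in either comparison with RANKL.

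RANKL against WENRC compares the M cell and stem cell cultures. In RANKL 5 of 25 members (20.0%) were higher, Tnfsf10, Tnfrsf8, Tnfrsf19, Tnfsf15 and Fas, and 0 were lower, against 12.1% of all tested genes, of which 8.53% were higher and 3.62% lower. At an unadjusted p under 0.05 limma gave 10 members. The median log2 change of the members was 0.14, against -0.01 over all tested genes. The 5 comprise 2 ligands, 1 death domain receptor and 2 TRAF-type receptors, and for 3 of them the values are given above.

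Fas encodes the death receptor for Fas ligand. It had 8.22 and 8.43 in RANKL, 8.41 and 8.79 in ENRI and 6.86 and 6.92 in WENRC. Both WENRC libraries were below the other 4, and RANKL and ENRI overlapped. RANKL exceeded WENRC by 1.44 (SE 0.19, limma FDR 0.00896), and WENRC was lower than ENRI, with a change of -1.71 (SE 0.19, limma FDR 0.00958). Fasl, the ligand gene, had values of -0.66 to -0.59, the lowest among the members.

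Tnfsf15 encodes TL1A, the ligand of the receptor made from Tnfrsf25. Its values in RANKL were 7.10 and 7.28, in ENRI 6.94 and 7.10, and in WENRC 5.77 and 5.44, again with both WENRC libraries lowest and the others overlapping. RANKL exceeded WENRC by 1.59 (SE 0.20, limma FDR 0.00858), and WENRC was lower than ENRI, with a change of -1.41 (SE 0.20, limma FDR 0.0142). Tnfrsf25 was not past limma's threshold in any comparison, with a change of -0.44 between RANKL and WENRC (limma FDR 0.381).

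Of 8 enterocyte markers 4 were higher in RANKL than in WENRC by limma. Fabp1, Fabp2, Rbp2 and Lct were not, with changes of 0.27, -0.45, -0.81 and -0.60. All 4 of these were lower in RANKL than in ENRI by limma, where Fas and Tnfsf15 changed by -0.27 and 0.17 and did not pass the test. The summed level of the 8 markers was 14.49 to 14.64 in RANKL, 15.53 to 16.33 in ENRI and 11.37 to 12.75 in WENRC. Their part in the Fas and Tnfsf15 results was not tested. The calls rested on the libraries in the fit. Without RANKL 1, RANKL 2, WENRC 1 or WENRC 2, limma called 0 members, with 8, 5, 6 and 8 at an unadjusted p under 0.05; without ENRI 1 or ENRI 2, which are not compared here, it called 13. The authors' deposited table also gives 13, 9 higher and 4 lower, against 27.8% of the same tested genes (16.7% higher and 11.1% lower). The 8 members past the threshold there and not in limma's fit were Tnfrsf10b, Tnfrsf12a, Tnfrsf1a, Tnfrsf1b, Tnfrsf21, Tnfrsf22, Tnfrsf23 and Tnfsf13b. For the 5 members above, the authors' deposited table gives 3.48 for Tnfsf10, 2.84 for Tnfrsf8, 1.89 for Tnfrsf19, 2.46 for Tnfsf15 and 1.87 for Fas.

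WENRC against ENRI compares the stem cell and enterocyte cultures of the same 2 mice. In WENRC 1 member was higher, Tnfrsf19, and 5 were lower, the death domain receptors Fas, Tnfrsf1a and Tnfrsf21 and the ligands Tnfsf15 and Tnfsf12. That is 6 of 25 members (24.0%), against 14.6% of all tested genes, of which 4.85% were higher and 9.74% lower. The median log2 change of the members was -0.25, against -0.01 over all tested genes. Of the 5 death domain receptors 3 were lower and 0 higher by limma; Tnfrsf10b had a change of -0.19 (limma FDR 0.673) and Tnfrsf25 of -0.04 (limma FDR 0.941).

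Tnfrsf1a encodes TNF receptor 1, the death domain receptor for TNF. It had 8.94 and 9.11 in RANKL, 9.42 and 9.91 in ENRI and 8.34 and 8.01 in WENRC, and the 3 cultures did not overlap. WENRC was lower than ENRI, with a change of -1.49 (SE 0.22, limma FDR 0.0144), while RANKL lay between, with changes of -0.64 from ENRI (limma FDR 0.0866) and 0.85 from WENRC (limma FDR 0.0568). Tnfrsf21, which encodes death receptor 6, had 9.11 and 9.23 in RANKL, 9.76 and 9.27 in ENRI and 8.37 and 8.72 in WENRC. Its WENRC libraries were lowest, with a change from ENRI of -0.97 (SE 0.22, limma FDR 0.0374).

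Within each mouse, WENRC minus ENRI had the same sign in mouse 1 and mouse 2 for all 6 members. It was 2.36 and 3.42 for Tnfrsf19, -1.55 and -1.86 for Fas, and -1.08 and -1.90 for Tnfrsf1a. For Tnfrsf21 it was -1.39 and -0.55, for Tnfsf12 -1.10 and -1.59, and for Tnfsf15 -1.17 and -1.66. Replicate number is the mouse for ENRI and WENRC but not for RANKL. With it as a block in the fit of all 6 libraries, 5 of the 6 stayed past limma's threshold and Tnfrsf21 did not (FDR 0.0629). In a block fit of only the 4 ENRI and WENRC libraries, an alternative added after seeing the data, 1 did, Tnfrsf19. Tnf and Tnfrsf1b differed between the mice: the change of Tnf was -0.68 in mouse 1 and 2.56 in mouse 2, and that of Tnfrsf1b 0.23 and 2.20.

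Without RANKL 1 or RANKL 2, which are not compared here, or without WENRC 2, limma called 0 members in this comparison, with 7, 7 and 6 at an unadjusted p under 0.05, and without WENRC 1 it called Tnfrsf19 alone. Without ENRI 1 it called 13. By the authors' deposited table, 6 members were past the threshold, 1 higher and 5 lower, against 12.5% of the same tested genes (3.3% higher and 9.24% lower). The 2 comparisons with ENRI share the ENRI libraries, the 2 with RANKL the RANKL libraries and the 2 with WENRC the WENRC libraries, so they are not independent of each other. Across the 3 comparisons 11 members passed limma's threshold at least once and 14 did not; for those 14 the changes ran from -1.08 to 1.38. Of the 14, Tnfrsf10b, Tnfrsf12a and Tnfrsf22 are past 0.05 by the adjusted p of the authors' deposited table, at 0.0338, 0.000704 and 0.0338 for RANKL against WENRC.

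The H3K27me3 of RANKL and WENRC was compared through regions that the authors called in 1 culture with the other as control. Every region therefore differs by construction, each culture has 1 value, and there is no replicate check. By gene name, 52 regions were assigned to 14 of the 35 members, 24 with more of the mark in RANKL (of 35798 in the table) and 28 with more in WENRC (of 13607). The median of the authors' fold was 3.2 over the first and 3.54 over the second, against 2.92 and 3.3 over all regions. Within 5 kb of a start site, 6 members (17.1%) had a RANKL-higher region, against 19.1% of all genes, and 4 (11.4%) had a WENRC-higher region, against 5.44%. The first share is near the background, and the second rests on 4 genes. Of the 10 members under the GRO-seq filter, 7 (70.0%) had a region at any distance, against 46.1% of all untested genes, and of the 25 tested members 7 (28.0%) did, against 41.2% of all tested genes.

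Tnfrsf19 had 6 regions, all with more H3K27me3 in RANKL, the culture in which it was transcribed most. Coordinates of regions are mm9, as in the files. The region at its upstream start, chr14:61665645-61666145, ran from 453 bases before the start to 47 after it, with 23 tags in RANKL and 8.1 scaled tags in WENRC, a fold of 2.84. The region at its internal start, chr14:61656433-61656933, in intron 1 of the long transcript, ran from 109 before to 391 after that start, with 23 tags against 4.5, a fold of 5.11. In the printed windows these regions cover 297 and 159 of 300 bases. The 2 starts lie 8868 bp apart in both builds, which ties the windows to the starts without converting coordinates. The other 4 regions lay 11 to 42 kb upstream.

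**Figure D3:**
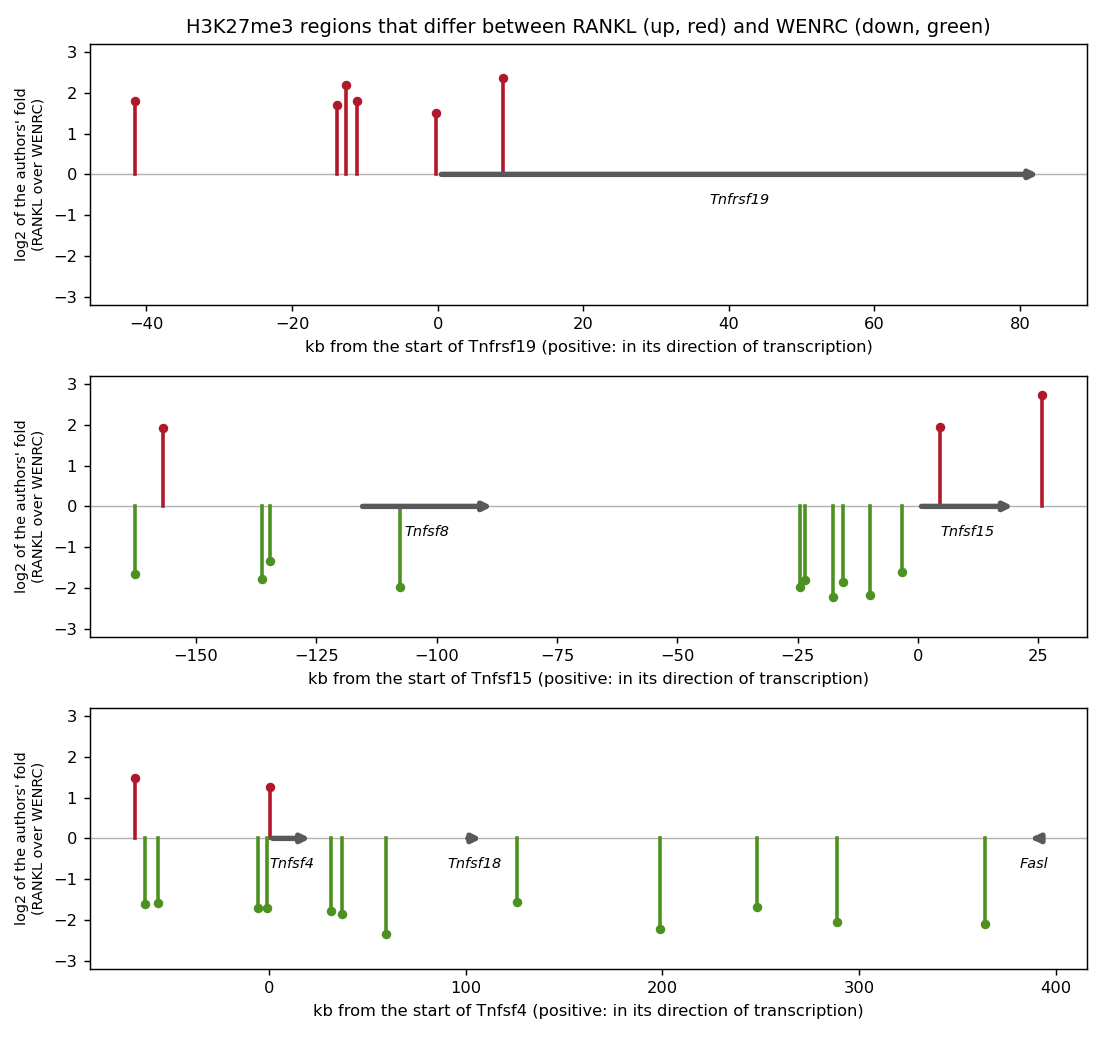
Regions with more H3K27me3 in RANKL (red, up) or in WENRC (green, down) at 3 loci: distance from a start site in kb (horizontal axis) against log2 of the authors' fold (vertical axis), with genes as arrows. All 6 Tnfrsf19 regions point up, while 10 of 13 at Tnfsf8 and Tnfsf15 and 12 of 14 at Tnfsf4, Tnfsf18 and Fasl point down.

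The ligand genes Tnfsf15 and Tnfsf8 are neighbours on chromosome 4 and held 13 regions by gene name, 3 higher in RANKL and 10 in WENRC. Tnfsf15, transcribed more in RANKL than in WENRC, had 6 WENRC-higher regions upstream of its start, with folds from 3.06 to 4.68. The nearest, chr4:63409200-63409700, lay 3.3 kb upstream, with 10 tags in RANKL and 30.6 scaled tags in WENRC. In its intron 1, at 4.7 kb into the gene, chr4:63401208-63401708 went the other way, with 21 tags in RANKL and 5.4 in WENRC, a fold of 3.89. So did chr4:63380077-63380577, 25.8 kb downstream of the start, with 24 tags in RANKL and 3.6 in WENRC, a fold of 6.66. On chromosome 1, Tnfsf4 (OX40 ligand), Tnfsf18 (GITR ligand) and Fasl, none of which passed the GRO-seq filter, held 14 regions, 12 of them WENRC-higher. At the start of Tnfsf4 both directions occurred side by side: chr1:163324491-163324991 had 5 tags in RANKL and 16.2 in WENRC, and chr1:163325567-163326067 had 26 and 10.8.

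Tnfrsf21 had 1 region, WENRC-higher, centred 957 bp upstream of its start (chr17:43152233-43152861), with 6 tags in RANKL and 26.1 in WENRC, a fold of 4.35. Its GRO-seq change between these cultures, 0.63, did not pass the test (limma FDR 0.117). Tnfrsf9 encodes 4-1BB, a family receptor known from T cells. It had a WENRC-higher region over its internal start (chr4:150301716-150302543), with 10 tags against 37.8, a fold of 3.78. That region covered all 300 bases of the window printed above. The GRO-seq change of Tnfrsf9 was 0.14 (limma FDR 0.707).

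Tnfsf13b had 3 regions, all RANKL-higher, the strongest in its intron 2 (chr8:10006882-10008087) with 59 tags in RANKL and 12.6 in WENRC, a fold of 4.68. The longest region, chr4:151493830-151496915 of 3085 bp, was assigned to Tnfrsf25 by gene name and ran past the listed end of that gene at 151494228. It had 188 tags in RANKL and 46.8 in WENRC, a fold of 4.02. Tnfrsf13c, transcribed under the filter, had 3 RANKL-higher regions within 5 kb, the strongest at chr15:82053961-82054461 with 19 tags against 6.3, a fold of 3.02. Among the members called in the GRO-seq comparison of RANKL with WENRC, Tnfsf10 and Tnfrsf8 had no region by gene name in either table. The same held for the loci of Tnfrsf1b, of Tnfrsf22, Tnfrsf23 and Tnfrsf26, of Tnf, Lta and Ltb, and of Tnfrsf1a and Ltbr; such genes may carry the mark alike in both cultures, since the tables list differences alone.

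Of genes that act with the family, 4 lists were examined. Among 30 adaptors and kinases at the receptors, all tested, 7 were higher and 3 lower in RANKL than in ENRI (median log2 change 0.07), where 10.4% of all tested genes were higher and 10.5% lower. Over WENRC 10 were higher and 0 lower (median 0.24), where 8.53% of all tested genes were higher and 3.62% lower. Birc3, the inhibitor of apoptosis cIAP2, exceeded ENRI by 1.07 (SE 0.12, limma FDR 0.00490) and WENRC by 2.09 (SE 0.12, limma FDR 0.00144). Traf2, the TRAF adaptor that recruits it, rose over them by 0.92 (limma FDR 0.00738) and 1.20 (limma FDR 0.00522). Tank, a TRAF-binding scaffold, rose by 1.13 (limma FDR 0.00556) and 1.11 (limma FDR 0.00792). In WENRC 4 of the 30 were lower than in ENRI and 0 higher by limma, where 9.74% of all tested genes were lower and 4.85% higher, led by Birc3 at -1.02 (limma FDR 0.0109), the deubiquitinase Cyld at -0.95 (limma FDR 0.0127) and the kinase Ripk1 at -0.70 (limma FDR 0.0220). Without RANKL 1 or RANKL 2 limma called 0 of the 30 in each of the 3 comparisons, with 9 to 11 at an unadjusted p under 0.05, and without WENRC 1 or WENRC 2 it called 2 and 1 between RANKL and WENRC and 0 between WENRC and ENRI (8 and 6 unadjusted). Without ENRI 1 it called 13 higher and 4 lower between RANKL and ENRI, and 5 higher and 10 lower between WENRC and ENRI. With replicate number as a block it called 3 lower between WENRC and ENRI in the fit of 6 libraries and 0 in that of 4 (7 unadjusted). The authors' deposited table has 7 higher and 2 lower, 12 higher and 1 lower, and 3 lower in the 3 comparisons.

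Among 24 genes known to be induced by TNF through NF-kB, 20 were tested: 11 were higher and 2 lower in RANKL than in ENRI (median 1.30), against the same 10.4% and 10.5% of all tested genes. Over WENRC 12 were higher and 0 lower (median 1.76), against 8.53% and 3.62%. Tnfaip2, which is also one of the M cell markers used above, exceeded ENRI by 4.87 (SE 0.21, limma FDR 0.000963) and WENRC by 4.68 (SE 0.21, limma FDR 0.00123). Tnip1, a brake on NF-kB signalling, rose by 1.93 (limma FDR 0.00184) and 2.66 (limma FDR 0.00123), and Nfkbia, the inhibitor IkB alpha, by 1.94 (limma FDR 0.00204) and 2.11 (limma FDR 0.00175). Ccl20, a chemokine of the follicle-associated epithelium, exceeded ENRI by 1.04 (limma FDR 0.0139) and WENRC by 3.22 (limma FDR 0.00142). The 2 lower than in ENRI were Tnip3 at -3.01 (SE 0.69, limma FDR 0.0311) and Junb at -0.65 (limma FDR 0.0336). Tnip3 had 9.60 and 7.30 in ENRI 1 and 2. With only the 4 compared libraries in the fit limma called 10 higher and 0 lower, so neither of these held there. In WENRC 5 of the 20 were lower than in ENRI and 0 higher by limma, against 9.74% and 4.85%, led by Ccl20 at -2.17 (limma FDR 0.00624), the growth factor gene Csf2 at -1.64 (limma FDR 0.0116) and the NF-kB subunit gene Relb at -1.08 (limma FDR 0.0143). Without RANKL 1 or RANKL 2, limma called 4 and 1 of the 20 between RANKL and ENRI, and 0 between RANKL and WENRC (13 and 13 at an unadjusted p under 0.05) and between WENRC and ENRI (6 and 6). Without WENRC 1 or WENRC 2 it called 8 in either case between RANKL and WENRC and 0 between WENRC and ENRI (7 and 5 unadjusted). Between WENRC and ENRI it called 3 higher and 6 lower without ENRI 1, and 0 higher and 9 lower without ENRI 2. With replicate number as a block it called 3 lower there in the fit of 6 libraries and 1 in that of 4. The authors' deposited table has 11 higher and 1 lower, 15 higher and 1 lower, and 4 lower in the 3 comparisons.

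**Figure D4:**
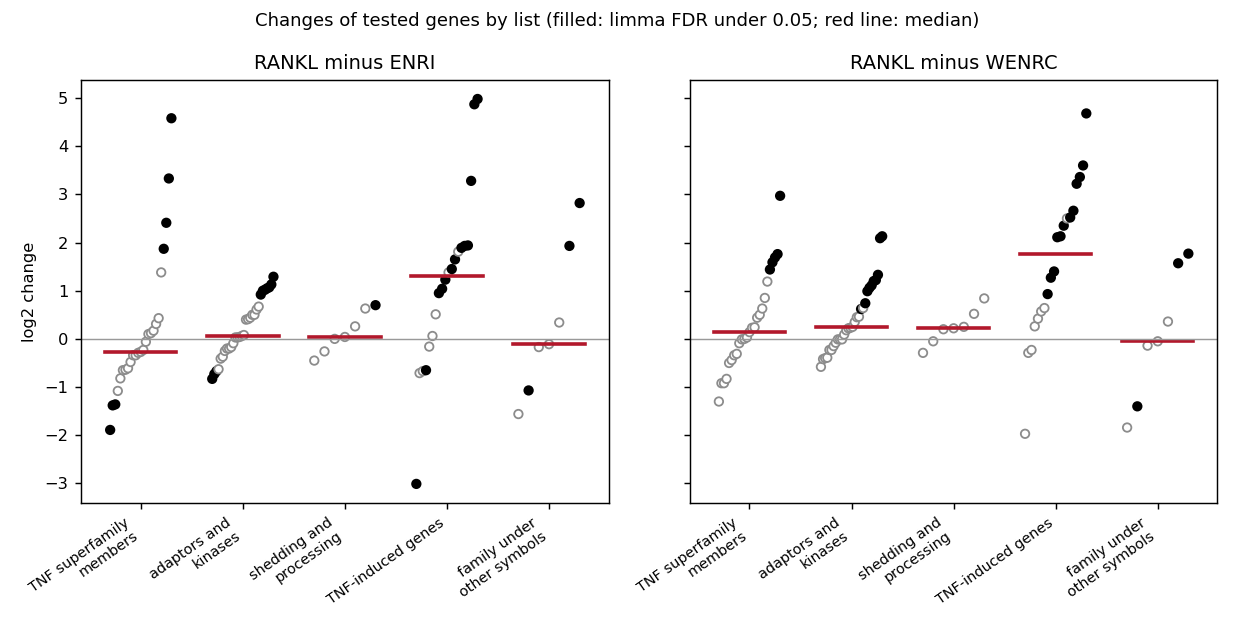
Log2 change (vertical axis) of every tested gene of the TNF superfamily and of 4 related lists, for RANKL minus ENRI (left) and RANKL minus WENRC (right). Filled points passed limma FDR 0.05 and red lines are medians: those of the TNF-induced genes lie at 1.30 and 1.76, those of the superfamily at -0.27 and 0.14.

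Of 7 genes for ligand and receptor shedding and processing, limma called 1 higher in RANKL than in ENRI, against 10.4% of all tested genes. It was the metalloprotease gene Adam10, with a change of 0.70 (limma FDR 0.0413). Between WENRC and ENRI limma called 1 lower, the convertase gene Furin with -0.70 (limma FDR 0.0396), against 9.74% of all tested genes. Neither call held under these settings: in both comparisons limma called 0 of the 7 with the mouse or replicate number as a block, with only the compared libraries, with no variance trend, and without RANKL 1, RANKL 2, WENRC 1 or WENRC 2, with 0 to 3 and 1 at an unadjusted p under 0.05, and the authors' deposited table has 0. Without ENRI 1 it called 3 and 2. Between RANKL and WENRC limma called 0, with 2 at an unadjusted p under 0.05, Sppl2a and Adam10, while it called 2 with only the 4 compared libraries and without ENRI 1 or ENRI 2, and the authors' deposited table has 2. Adam17, the main TNF sheddase, had changes of 0.26 and 0.20 in RANKL over ENRI and WENRC (limma FDR 0.223 and 0.369).

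Of 9 family members whose symbols lack Tnfrsf and Tnfsf, 7 were tested, and 2 were higher and 1 lower in RANKL than in each other culture. Of all tested genes 10.4% were higher and 10.5% lower in RANKL than in ENRI, and 8.53% higher and 3.62% lower than in WENRC. Relt exceeded ENRI by 2.82 (limma FDR 0.00490) and WENRC by 1.57 (limma FDR 0.0335), and Ngfr, the p75 neurotrophin receptor, by 1.93 (limma FDR 0.00422) and 1.77 (limma FDR 0.00727). Eda, the ectodysplasin ligand, was lower, with changes of -1.07 (limma FDR 0.0145) and -1.40 (limma FDR 0.00926). Without RANKL 1 or RANKL 2 limma called 0 of the 7 in either comparison, with 4 and 3 at an unadjusted p under 0.05, and without WENRC 1 or WENRC 2 it called 0 between RANKL and WENRC (4 and 3 unadjusted). The authors' deposited table has 2 higher and 2 lower in each. Between WENRC and ENRI limma called 0, with 1 at an unadjusted p under 0.05, Relt, which the authors' deposited table does not call; it called 1 without ENRI 1 or ENRI 2.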

How the data were processed

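GRO-seq was measured in 6 libraries and H3K27me3 in 3. Per the file headers, the authors counted GRO-seq reads over whole RefSeq genes of mm9 with HOMER's analyzeRepeats.pl and passed them to getDiffExpression.pl; the submitters' processing notes name Bowtie2 2.3.4.1, HOMER and DESeq2. The deposited values are on a log2 scale, normalized between libraries; their shape, by inference from the values, is that of a regularized logarithm, which understates changes of genes with few reads. Depth is unknown, and strand handling is not given in the sources used here. The authors' own log2 fold changes and adjusted p-values are also deposited; their sign was turned where needed, so that each change is the first-named culture minus the second.

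Per the file headers, the authors called H3K27me3 regions of each culture with HOMER, taking the second culture as the control. RANKL tags per region are deposited as whole counts in the RANKL table; WENRC tags are a signal scaled by the authors to the RANKL total, and the deposited fold is a ratio of the 2. Regions were assigned by the deposited gene name and called near within 5 kb of a start site.

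limma 3.58.1 (R 4.3.3) with a variance trend was fitted on all 6 libraries as 3 group means, with no pseudocount, over 16563 genes with a value of at least log2 of 10 in at least 2 libraries; the 2131 genes at 0 in all libraries were left out. Tests were two-sided with Benjamini-Hochberg adjustment over all tested genes, and the fit was tested on simulated data. ENRI and WENRC libraries with the same number come from the same mouse per the labels, and their deviations from the culture means correlated across genes (r = 0.414); RANKL numbers are not mouse numbers (r = -0.205 with ENRI and -0.323 with WENRC). Members named in full are those past FDR 0.05 in at least 1 comparison; for lists, the 3 genes with the smallest p in each comparison, and near regions by the largest fold per member. Others named were chosen after their values were seen, or to pair a ligand with its receptor. The members and lists were chosen with earlier results of these data known. A leukocyte marker and the summed level of the leukocyte markers are not reported here.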

Additional observations from a re-analysis of the deposited data

How the results depend on the processing

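Over the 18 changes past the threshold, 258 values under alternative settings kept their direction in every case; 178 were still past it and 80 were not. Many of these settings leave the estimated change itself as it was, so its direction could not turn there. They are other filters, no variance trend, a replicate block, only the compared libraries, and a library left out of the culture not compared. The number of members called by limma for RANKL against ENRI, RANKL against WENRC and WENRC against ENRI was 7, 5 and 6. With only the 4 compared libraries in the fit it was 3, 13 and 0 (7 at an unadjusted p under 0.05 for the last, and 6 in the authors' deposited table). Leaving out 1 library at a time gave 1 to 14, 0 to 13 and 0 to 13, where a culture left with 1 library was assumed to vary like the others. The authors' deposited adjusted p gave 13 members for RANKL against WENRC. A replicate block in the fit of all 6 libraries gave 7, 5 and 5, with Tnfrsf21 lost, and a replicate block in the fit of the 4 ENRI and WENRC libraries, added after seeing the data, gave 1; the replicate block changed no other call among the members in the fit of 6 libraries, and its effect on the related lists is given with them. No filter, a filter at log2 of 30, upper quartile recentring, quantile normalization and no variance trend gave 7 or 8, 5, and 5 or 6. Upper quartile recentring moved the median change of all tested genes to -0.12 for RANKL against WENRC and 0.10 for WENRC against ENRI. For H3K27me3, WENRC-higher members numbered 8 at any distance (24.0% of all genes), and at a fold of at least 4 there were 3 RANKL-higher and 1 WENRC-higher members (3.04% and 1.37% of all genes). The cause of these movements was not tested. No depth, and hence no counting error, could be given for the GRO-seq values, and regions of few tags, such as 5 against 16.2, have no replicate check.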
